A study of Mus musculus with 32 samples.

Results

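Tight junction genes were followed through the TGFβ response of mouse mammary epithelial cells. The genes are Ocln, Cldn1, Cldn3, Cldn4, Cldn7, F11r, Tjp1, Tjp3 and Cgn, 9 of the 18193 genes that the array annotation names by 1 symbol. They were chosen by name, and 18 probe sets of the Affymetrix mouse genome array carry their symbols alone. NMuMG is an established line of normal mouse mammary gland epithelium, and E1KD is an NMuMG derivative in which hnRNP E1, an RNA-binding protein encoded by Pcbp1, was knocked down by shRNA. E1KD is 1 line, also called SH14, and the sources used here do not say whether it is a single clone. Both lines were left untreated or were given TGFβ2 at 5 ng/ml for 24 h, and total RNA and RNA of monosomal and polysomal pools from a sucrose gradient were hybridised, which gives 24 arrays in 12 conditions. Another 8 arrays hold RNA that was immunoprecipitated from NMuMG cells by α-hnRNP E1 or by IgG, with and without TGFβ. Each condition has 2 replicates. The labels name them biological replicates but do not say that separate cultures were used, and a p-value here is therefore a measure of the spread between arrays only, which may be technical.

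A tight junction seals the space between neighbouring epithelial cells just below their apical surface. Claudins form its strands, occludin and JAM-A sit beside them in the membrane, and the zonula occludens proteins and cingulin tie these membrane proteins to actin and the cytoskeleton. Junction disassembly is an early step of the epithelial-mesenchymal transition (EMT) that TGFβ induces in NMuMG cells, and the EMT repressors Snail and Zeb are known to bind E-boxes of the sequence CAGGTG, or CACCTG on the other strand, in promoters of junction genes.

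The sequences around such E-boxes in the promoters of the measured genes are shown because these are the elements through which EMT repressors are known to act on this family. Promoter windows of 300 bases, 250 before to 50 after each start site, were searched on both strands in RefSeq sequences of build GRCm38.p6, and any hit is also a hit of the wider E-box CANNTG. All 9 genes matched, with 12 windows. CACCTG or CAGGTG was in 8 of these windows, from 6 genes (F11r, Cldn3, Cldn4, Cldn7, Tjp3 and Ocln), against 20.2% of the 32851 windows of all genes and 22.6% of 27025 genes. CANNTG was in 10 of the 12 windows, against 72.3% of all windows. The lines give the 26 bases around each match in the genes that were tested, 5′ to 3′ on the gene's own strand, with the match in capitals.
Ocln, chr13:100552696-100552721, minus strand: atcggagtttCAGGTGaatgggtcac
Ocln, chr13:100552551-100552576, minus strand: aggggctcggCAGGTGggtcccagcg
Cldn4, chr5:134946933-134946958, minus strand: ttaactgcagCACCTGtggccgccct
Cldn4, chr5:134946908-134946933, minus strand: tttcttgttgCAGGTGcaggcaggaa
Cldn3, chr5:134986235-134986260, plus strand: aagccacaggCAGGTGcaggggcagt
F11r, chr1:171437429-171437454, plus strand: ttcggggttgCACCTGcgtacggtga
Counted from the start site of the window, with bases before it negative, the matches begin at 8 and -68 in Ocln, in the order shown and for different start sites, at -14 and 12 in Cldn4, at 32 in Cldn3 and at -122 in F11r. Cldn4 and Cldn3 are neighbours on chromosome 5, with 0 other genes of the RefSeq table between them. Tjp1 and Cgn had no match in these windows, which says only that the letters were not found there. A match is a description of sequence, and binding was not measured in this series.

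The labelled knockdown was seen in the arrays. Pcbp1 averaged 13.10 and 13.14 on the log2 scale in total RNA of untreated and TGFβ-treated NMuMG cells, and 10.82 and 9.44 in E1KD cells. The epithelial keratins Krt8 and Krt18 lay between 13.85 and 14.72 on all 32 arrays, whereas the epithelial surface marker Epcam was low, between 5.59 and 7.58. Among markers of other cell types, the leukocyte marker Ptprc stayed at or below 4.94 and the endothelial markers Pecam1 and Cdh5 at or below 5.86 and 6.15, while the macrophage marker Cd68 averaged 6.58, 5.97, 8.31 and 7.08 in total RNA of untreated NMuMG, treated NMuMG, untreated E1KD and treated E1KD cells. The leukocyte marker Cd3e lay between 5.01 and 6.83. E-cadherin (Cdh1) averaged 12.41, 12.46, 11.83 and 12.20 in the same order, and the keratin Krt19 averaged 12.31, 11.26, 11.90 and 11.87. Of the mesenchymal markers, the matrix gene Fn1 averaged 9.64, 11.49, 13.03 and 12.93 and S100a4 averaged 10.28, 9.57, 11.63 and 12.55, while Vim ran from 13.79 to 14.09 and N-cadherin (Cdh2) from 11.48 to 12.11 over the same 4 means. In bulk RNA, fewer cells that express a gene and less of its RNA per cell cannot be told apart.

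Of the 9 genes, 6 passed the filter on low values, which asked for a log2 signal above 5.52, the median of the whole table, on at least 8 arrays. These were Ocln, Cldn3, Cldn4, F11r, Tjp1 and Cgn, with 12 probe sets, and the plot of total RNA values shows all 9. The strand-forming claudin Cldn1 had 4 probe sets between 2.95 and 5.49 on the 32 arrays, and 0 of their values exceeded the median. Cldn7, another strand claudin, lay between 4.64 and 6.01, and the scaffold Tjp3 (ZO-3) between 3.83 and 5.62, each with 1 array above the median. These 3 genes gave no signal that could be told from the low end of the array, and they were not tested. Just inside the filter, the weaker probe set of Cgn exceeded the median on 8 arrays, and the next genes outside it did so on 1. A gene with several probe sets is represented by the one of highest mean. Levels are compared only within a probe set, because probes differ in their response.

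**Figure D1:**
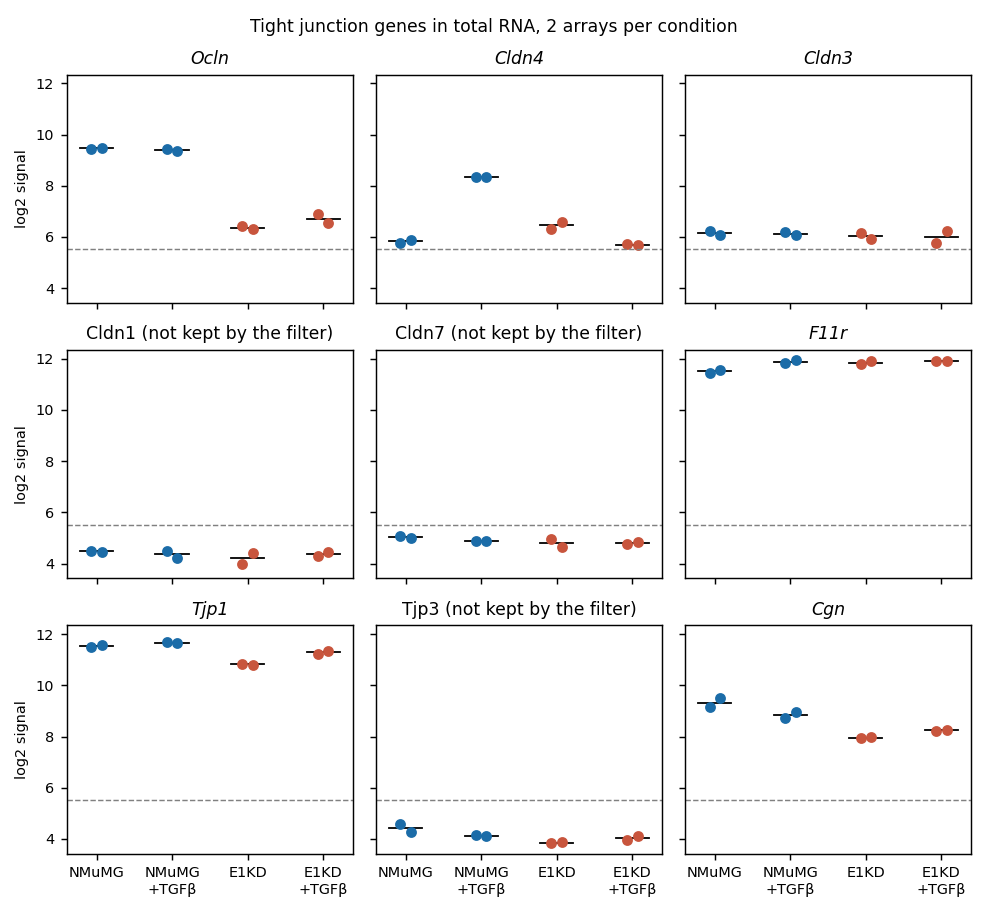
Log2 signals of the 9 tight junction genes in total RNA (y axis) for untreated and TGFβ-treated NMuMG and E1KD cells (x axis), 1 panel per gene. Points are single arrays, bars are means of 2, and the dashed line is the table median of 5.52. Ocln separates the cell lines, Cldn4 is high in treated NMuMG cells, and Cldn1, Cldn7 and Tjp3 lie below the line.

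The first comparison asked how TGFβ changed tight junction mRNA in cells with normal hnRNP E1. Cldn4, a strand-forming claudin with barrier functions, gave 5.76 and 5.90 in untreated NMuMG cells and 8.35 and 8.36 after TGFβ. The untreated arrays lay just above the table median, and the treated arrays stood clear of them. The rise was 2.52 on the log2 scale (SE 0.26, n = 2 per group, limma adjusted p = 1.16e-05), and its size is uncertain because the untreated signal was near the low end of the array. F11r, which encodes the adhesion molecule JAM-A, gave 11.46 and 11.57 untreated and 11.83 and 11.94 treated. Its groups did not overlap, but the difference was small, 0.37 (SE 0.10, limma adjusted p = 0.0435), and the second F11r probe set, whose name suffix marks probes that may match other transcripts, gave -0.24 (SE 0.17, limma adjusted p = 0.637). The second probe set was weak and varied little, between 6.09 and 6.93 on all 32 arrays, where the first ran from 9.28 to 11.94. The F11r call was lost whichever replicate was left out, with limma adjusted p between 0.119 and 0.353.

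The remaining genes of the membrane and the plaque did not pass the test in NMuMG cells. Occludin (Ocln), the MARVEL-domain protein of the strands, gave 9.45 and 9.48 untreated and 9.42 and 9.35 treated, a difference of -0.08 (SE 0.19, limma adjusted p = 0.96). Tjp1, which encodes the scaffold ZO-1, gave 11.51 and 11.56 untreated and 11.68 and 11.65 treated (0.13, SE 0.14, limma adjusted p = 0.823). For ZO-1 protein the paper reports, by immunoblot, a decrease with TGFβ in NMuMG cells and no apparent reduction in E1KD cells. The arrays measure RNA and not protein. Cgn, which encodes the cytoplasmic plaque protein cingulin, gave 9.14 and 9.50 untreated and 8.74 and 8.95 treated. The Cgn groups did not overlap, and the difference of -0.48 (SE 0.20) had a limma adjusted p of 0.269. Cldn3, a claudin that tightens the barrier, was at 6.24 and 6.07 untreated and 6.18 and 6.09 treated, close to the low end of the array. In all, 2 of the 6 genes were called higher and 0 lower, where 5.43% of all probe sets were called (3.0% higher and 2.43% lower). Their median difference was 0.06, and that of all probe sets was 0.00.

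In E1KD cells TGFβ gave a different picture for Cldn4. It gave 6.33 and 6.60 in untreated E1KD cells and 5.71 and 5.70 after TGFβ, a decrease of 0.76 (SE 0.26, limma adjusted p = 0.0481). The treated arrays were both below the untreated ones, but the call stands at the threshold. It was lost without any 1 of the 4 arrays, with limma adjusted p between 0.0884 and 0.263. The difference between the responses of the cell lines was -3.28 (SE 0.37, limma adjusted p = 1.98e-05, interaction of treatment and cell line), and it kept its call without each array in turn. Pcbp1 also differed between the E1KD states compared, at 10.82 untreated and 9.44 treated, and its part in the E1KD response was not tested. Cldn4 was the only one of the 6 genes whose response in total RNA was called different between the lines, against 11.4% of all probe sets (5.76% with the higher and 5.69% with the lower response in E1KD cells). It was joined by others when only the 8 total RNA arrays were fitted, or after scaling to Actb and Gapdh, which gave 3 and 2 genes.

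Tjp1 rose in E1KD cells, from 10.84 and 10.80 to 11.24 and 11.36 (0.48, SE 0.14, limma adjusted p = 0.0183). Its groups did not overlap. Without 1 array of the comparison the limma adjusted p was between 0.051 and 0.132, and the Tjp1 response was not called different from that of NMuMG cells (0.35, SE 0.19, limma adjusted p = 0.318). Ocln gave 6.43 and 6.30 untreated and 6.90 and 6.53 treated (0.35, SE 0.19, limma adjusted p = 0.24). Cgn, F11r and Cldn3 differed by 0.28, 0.07 and -0.03, and none of these passed the test. With 1 gene higher and 1 lower, 2 of 6 were called in E1KD cells, where 21.2% of all probe sets were called (11.4% higher and 9.75% lower). The median difference of the genes was 0.17, against -0.02 for all probe sets.

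**Figure D2:**
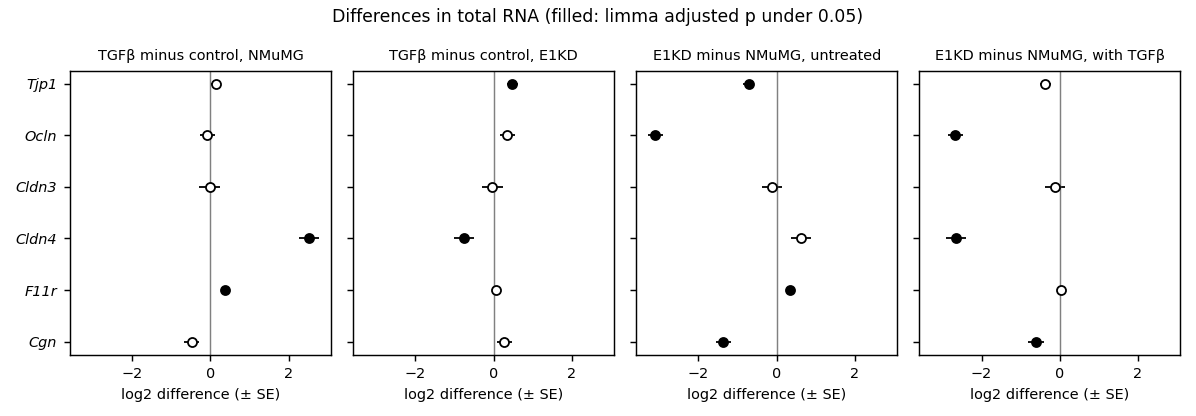
Log2 differences in total RNA (x axis, bars are SE of the limma fit) for the 6 tested genes (y axis) in 4 comparisons, 2 arrays per group. Filled points have a limma adjusted p under 0.05. Cldn4 lies at 2.52 for TGFβ in NMuMG and at -0.76 in E1KD cells, and Ocln lies at -3.10 and -2.67 for E1KD minus NMuMG.

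E1KD cells were compared with NMuMG cells next, with the untreated and the treated cells taken separately. No line with a control shRNA is among the arrays, so the knockdown and other differences between the 2 lines cannot be told apart. These comparisons share arrays with the TGFβ comparisons, so they are not independent of them. Ocln, at 9.45 and 9.48 in untreated NMuMG cells, was 6.43 and 6.30 in untreated E1KD cells, and with TGFβ it was 9.42 and 9.35 against 6.90 and 6.53. All 4 E1KD arrays lay at least 2 log2 units below all 4 NMuMG arrays. The differences were -3.10 (SE 0.19, limma adjusted p = 3.92e-09, 8.57-fold) and -2.67 (SE 0.19, limma adjusted p = 3.22e-08, 6.36-fold). The second Ocln probe set gave 7.37, 7.25, 7.23 and 7.21 in NMuMG and 5.19, 5.52, 5.60 and 5.56 in E1KD cells. It moved the same way, by -1.96 and -1.64, and its E1KD values stood near the table median.

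The plaque genes were also lower in E1KD cells. Cgn was 7.93 and 7.99 in untreated E1KD cells, against 9.14 and 9.50, a decrease of 1.36 (SE 0.20, limma adjusted p = 8.19e-05). With TGFβ it was 8.21 and 8.27 against 8.74 and 8.95, a decrease of 0.60 (SE 0.20, limma adjusted p = 0.0371), and this call was lost without any 1 of the 4 arrays, with limma adjusted p between 0.0691 and 0.218. The weaker Cgn probe set gave -0.63 and -0.33 and did not pass the test (limma adjusted p = 0.101 and 0.436). Tjp1 was lower by 0.71 untreated (SE 0.14, limma adjusted p = 0.000706). With TGFβ the Tjp1 difference was -0.37 (SE 0.14, limma adjusted p = 0.0587), and the treated groups still did not overlap.

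Claudin 4 and JAM-A were compared in the same arrays. In untreated cells Cldn4 was 0.63 higher in E1KD cells (SE 0.26), with no overlap of the arrays but a limma adjusted p of 0.0815. After TGFβ it was 2.65 lower (SE 0.26, limma adjusted p = 1.03e-06), with E1KD arrays close to the table median, where the size of a difference is uncertain. F11r gave 11.79 and 11.90 in untreated E1KD cells, an increase of 0.33 (SE 0.10, limma adjusted p = 0.0213) that the second probe set did not show (-0.05), and that was lost without NMuMG control replicate 1 or E1KD control replicate 2 (limma adjusted p = 0.164 for each). With TGFβ the F11r difference was 0.03 (SE 0.10, limma adjusted p = 0.898). Cldn3 differed by -0.12 and -0.13, with limma adjusted p of 0.815 and 0.781. Among the 6 genes, 1 was called higher and 3 lower in untreated cells (29.3% of all probe sets called, 15.8% higher and 13.5% lower), and 0 higher and 3 lower with TGFβ (27.2% called, 14.7% higher and 12.5% lower). The medians were -0.42 and -0.48, against -0.02 and -0.03 for all probe sets. Cd68 was higher in E1KD cells in both states, and its part in these differences was not tested.

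The gradient pools asked how the mRNAs were distributed between a monosomal and a polysomal pool. The monosomal pool joined the fractions of ribosomal subunits and of single ribosomes, and the paper calls it non-translating. RMA, the normalization the authors used, gives all arrays the same distribution, so a pool value is a share relative to other RNAs of the same pool and not an amount. In untreated NMuMG cells each of the 6 genes differed between the pools, where 71.2% of all probe sets were called (29.3% higher and 41.9% lower in the polysomal pool). Ocln was 8.31 and 8.47 in the monosomal and 6.76 and 6.40 in the polysomal pool (-1.81, SE 0.19, limma adjusted p = 6.02e-07). Cldn4 was 9.04 and 9.11 against 7.35 and 6.58 (-2.11, SE 0.26, limma adjusted p = 2.82e-06). F11r was 11.57 and 11.60 against 10.12 and 10.17 (-1.44, SE 0.10, limma adjusted p = 6.52e-09). The polysomal arrays of these genes of the junction membrane were all below the monosomal ones.

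Of the scaffold and plaque genes, Tjp1 was also lower in the polysomal pool, at 9.24 and 8.78 against 9.80 and 9.85 (-0.81, SE 0.14, limma adjusted p = 6.72e-05), and Cgn was higher, at 7.22 and 7.08 against 6.29 and 6.87 (0.57, SE 0.20, limma adjusted p = 0.0207). Cldn3 was higher in the polysomal pool, at 7.90 and 8.20 against 7.18 and 6.74 (1.09, SE 0.26, limma adjusted p = 0.00153), in all 4 of its probe sets. Thus 4 of the 6 genes were lower and 2 higher. Of 7 other claudins tested, 4 were higher and 2 lower (median 0.56), and total RNA of Cldn3 was close to the low end of the array. Of all 36 other tight junction and polarity genes tested, 10 were higher and 17 lower (median -0.29). The second F11r probe set did not share the direction of the first (0.38, SE 0.17, limma adjusted p = 0.0548), and the Cgn call was lost without monosomal control replicate 1 or polysomal control replicate 1. The median of the 6 was -1.13, against -0.13 for all probe sets, and centring the arrays on their median or on Actb and Gapdh moved the latter to -0.34 or 0.09.

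After TGFβ the pools of NMuMG cells stood in another order. Ocln was 6.74 and 6.48 in the monosomal and 6.72 and 6.98 in the polysomal pool (0.24, SE 0.19, limma adjusted p = 0.326), so that the groups met. Tjp1 turned, with 7.94 and 8.27 against 9.02 and 8.96 (0.89, SE 0.14, limma adjusted p = 4.2e-05). F11r came within 0.23 (10.96 and 11.18 against 10.84 and 10.85), and its limma adjusted p was 0.078. Cldn4 stayed lower in the polysomal pool, at 8.57 and 8.40 against 9.85 and 10.43 (-1.66, SE 0.26, limma adjusted p = 5.17e-05), and Cgn stayed higher, at 7.32 and 7.48 against 6.39 and 6.60 (0.91, SE 0.20, limma adjusted p = 0.00145). Cldn3 was at 7.77 and 7.85 against 8.29 and 7.89 (-0.28, limma adjusted p = 0.399). Here 3 of 6 genes were called, where 49.7% of all probe sets were (27.6% higher and 22.1% lower), and the medians were 0.01 and 0.02.

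**Figure D3:**
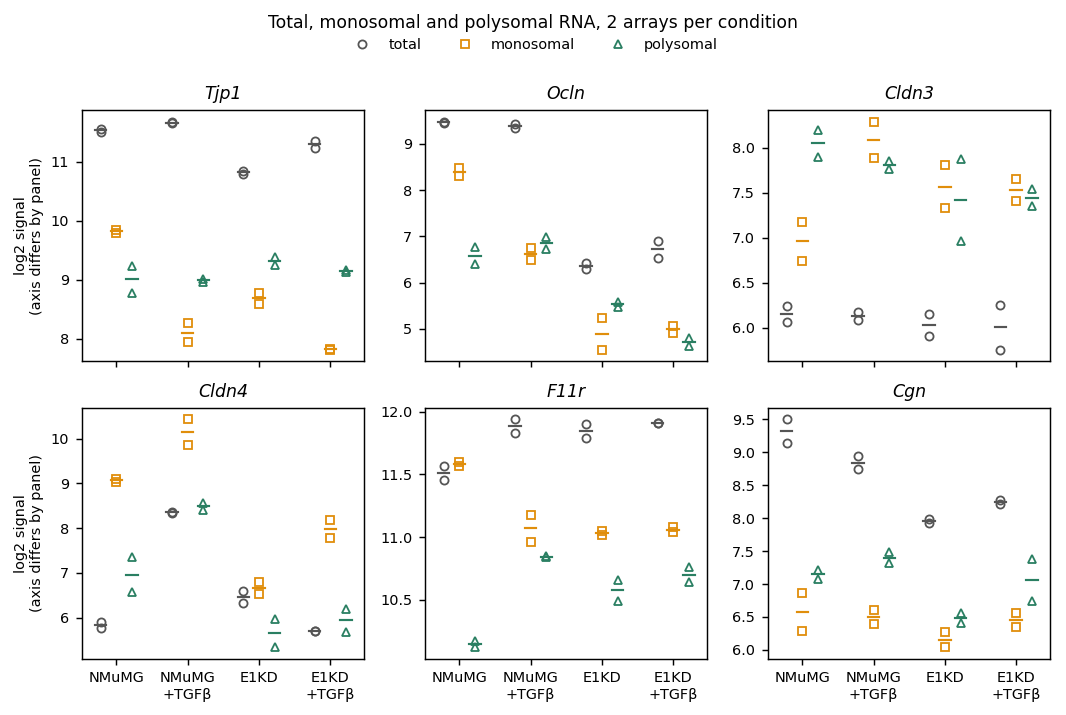
Log2 signals of the 6 tested genes (y axis, scaled per panel) in total RNA (circles), monosomal RNA (squares) and polysomal RNA (triangles) of the 4 cell and treatment states (x axis). Symbols are single arrays and short lines are means of 2. In untreated NMuMG cells Ocln, Cldn4, F11r and Tjp1 are higher in the monosomal than in the polysomal pool, and after TGFβ Cldn4 alone of these remains called lower in the polysomal pool.

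The polysome shift, the change with TGFβ in the gap between polysomal and monosomal signal, was tested as an interaction. In NMuMG cells Ocln shifted by 2.05 (SE 0.27, limma adjusted p = 6.6e-06), Tjp1 by 1.70 (SE 0.19, limma adjusted p = 1.15e-06) and F11r by 1.21 (SE 0.14, limma adjusted p = 1.83e-06) toward the polysomal pool. Cldn3 shifted the other way, by -1.37 (SE 0.37, limma adjusted p = 0.00364). So did 5 of 7 other claudins tested, while 2 shifted toward the polysomal pool (median -1.02). Of 12 other scaffold and plaque genes tested, 10 were called toward that pool and 1 away from it (median 0.83). Of all 36 other tight junction and polarity genes tested, 20 were called toward it and 10 away (median 0.65). Total RNA of Cldn3 was close to the low end of the array. Cldn4 (0.46, SE 0.37) and Cgn (0.34, SE 0.29) were not called. Of all probe sets 70.4% were called (40.1% toward and 30.3% away from the polysomal pool), so 4 of 6 is near that share, and the median of the genes was 0.83 against 0.09. The second probe set of Ocln moved the same way as its first (0.72, limma adjusted p = 0.00897), and that of F11r was called in the opposite direction (-0.65, limma adjusted p = 0.0221). The second F11r probe set lay between 6.09 and 6.93 on all 32 arrays.

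The contrasts with treatment within the monosomal and the polysomal pool were added after these values had been seen. In the monosomal pool of NMuMG cells TGFβ lowered Ocln by 1.78 (SE 0.19, limma adjusted p = 5.79e-07), Tjp1 by 1.72 (SE 0.14, limma adjusted p = 2.08e-08) and F11r by 0.51 (SE 0.10, limma adjusted p = 0.000274), and raised Cldn3 by 1.13 (SE 0.26, limma adjusted p = 0.00103) and Cldn4 by 1.07 (SE 0.26, limma adjusted p = 0.00163). In the polysomal pool Ocln and Tjp1 differed by 0.27 and -0.02 (limma adjusted p = 0.328 and 0.934), whereas Cldn4 rose by 1.52 (SE 0.26, limma adjusted p = 0.000325) and F11r by 0.70 (SE 0.10, limma adjusted p = 7.74e-05). In these relative values the Ocln and Tjp1 shifts lay in the monosomal pool, and that of F11r, by its stronger probe set, in both pools. Pool values are shares, so a change of the other RNAs of a pool cannot be told apart from these changes. Replicates of the treated monosomal pool of NMuMG cells agreed least of all conditions (Pearson r = 0.974). Total RNA of Cldn3 was close to the low end of the array. In this pool the low markers Cdh5, Pecam1 and Ptprc averaged 4.56, 4.16 and 3.66 untreated, and 5.80, 5.16 and 3.93 treated. Whether the Cldn3 change was shared with other low signals was not tested. In all, 5 of 6 genes were called in the monosomal pool, where 75.3% of all probe sets were (34.3% higher and 41.1% lower), and 2 of 6 in the polysomal pool, where 30.1% were (18.8% higher and 11.3% lower). Of 7 other claudins tested, 5 were higher and 2 lower with TGFβ in the monosomal pool (median 0.59). Of all 36 other tight junction and polarity genes tested, 12 were higher and 18 lower there (median -0.4).

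The pools of E1KD cells were compared in the same way. Untreated, Ocln was 5.24 and 4.55 in the monosomal and 5.57 and 5.48 in the polysomal pool (0.63, SE 0.19, limma adjusted p = 0.0181), values around the table median, and its second probe set gave -0.07. Tjp1 was 8.60 and 8.77 against 9.39 and 9.25 (0.64, SE 0.14, limma adjusted p = 0.0016), the opposite order to untreated NMuMG cells. Cldn4 was 6.53 and 6.80 against 5.34 and 5.97 (-1.01, SE 0.26, limma adjusted p = 0.00608), and F11r was 11.05 and 11.02 against 10.49 and 10.66 (-0.46, SE 0.10, limma adjusted p = 0.00201). Of the 6 genes 4 were called, against 35.0% of all probe sets (16.8% higher and 18.2% lower), with medians of 0.09 and -0.01. Without E1KD monosomal control replicate 2 or polysomal control replicate 1, only 2 were.

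With TGFβ, Tjp1 was 7.82 and 7.83 in the monosomal and 9.17 and 9.14 in the polysomal pool of E1KD cells (1.33, SE 0.14, limma adjusted p = 3.93e-07). Cldn4 was 7.77 and 8.18 against 6.20 and 5.69 (-2.03, SE 0.26, limma adjusted p = 4.77e-06). These are wide gaps in opposite directions. Cgn was 6.56 and 6.35 against 6.74 and 7.38 (0.61, limma adjusted p = 0.0177), F11r 11.04 and 11.08 against 10.64 and 10.76 (-0.36, limma adjusted p = 0.006), and Ocln 4.91 and 5.07 against 4.62 and 4.81 (-0.27, limma adjusted p = 0.233). Cldn3 overlapped between the pools in both states of E1KD cells, with 7.81 and 7.33 against 7.88 and 6.96 untreated and 7.41 and 7.65 against 7.54 and 7.35 treated. Again 4 of 6 were called, against 60.7% of all probe sets (34.0% higher and 26.6% lower), with medians of -0.18 and 0.04, and 2 when only the arrays compared were fitted.

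The polysome shift of E1KD cells was called for Tjp1 (0.70, SE 0.19, limma adjusted p = 0.0149), Ocln (-0.90, SE 0.27, limma adjusted p = 0.0226) and Cldn4 (-1.02, SE 0.37, limma adjusted p = 0.0484), where 28.7% of all probe sets were called (20.9% toward and 7.73% away from the polysomal pool). None of the 3 was called without E1KD monosomal control replicate 2, and the Ocln values lay at the low end of the array. The contrast between the lines was tested directly. The shift in E1KD minus that in NMuMG cells was -2.96 for Ocln (SE 0.39, limma adjusted p = 4.57e-05), whose E1KD pools lay around or below the table median and leave the size uncertain, -1.11 for F11r (SE 0.20, limma adjusted p = 0.000642), -1.00 for Tjp1 (SE 0.27, limma adjusted p = 0.00945), -1.47 for Cldn4 (SE 0.52, limma adjusted p = 0.0364) and 1.43 for Cldn3 (SE 0.52, limma adjusted p = 0.0412). For Cgn it was -0.06 (SE 0.41). That is 5 of 6 genes against 36.5% of all probe sets (13.1% higher and 23.5% lower in E1KD cells), with medians of -1.06 and -0.1. Ocln and Tjp1 kept the call without each array in turn, and so did F11r by its stronger probe set, while its second probe set gave 0.72 (SE 0.33, limma adjusted p = 0.105). Leaving out NMuMG monosomal control replicate 2, NMuMG polysomal control replicate 2, NMuMG monosomal TGFβ replicate 1, NMuMG polysomal TGFβ replicate 1, E1KD monosomal control replicate 1 or E1KD polysomal control replicate 2 left 3 genes called. The calls of Cldn4 and Cldn3 stood near the threshold, with limma adjusted p of up to 0.0969 and 0.107 when 1 array was left out.

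Cldn4 in E1KD cells moved differently in the pools and in total RNA. TGFβ raised it by 1.31 in the monosomal pool (SE 0.26, limma adjusted p = 0.00101), from 6.53 and 6.80 to 7.77 and 8.18, while total RNA went from 6.33 and 6.60 to 5.71 and 5.70. In the polysomal pool the change was 0.29 (SE 0.26, limma adjusted p = 0.604). Tjp1 fell by 0.86 in the monosomal pool of E1KD cells (SE 0.14, limma adjusted p = 0.00018). Ocln gave -0.81 in the polysomal pool (SE 0.19, limma adjusted p = 0.0277), between values at and below the table median, and its second probe set gave -0.16 (limma adjusted p = 0.644). The call was lost without any 1 of the 4 arrays (limma adjusted p between 0.0753 and 0.144). Thus 2 of 6 genes were called in the monosomal pool, against 39.3% of all probe sets (12.9% higher and 26.4% lower), and 1 in the polysomal pool, against 4.45% (3.04% higher and 1.41% lower).

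The pools were also set against total RNA of the same cells. Tjp1 was lower in every pool, with differences from -3.56 to -1.5, and so were Ocln, from -2.88 to -0.84, and, by its strongest probe set, Cgn, from -2.74 to -1.18. The weaker Cgn probe set was above total RNA in 4 of the 8 pools, by up to 0.70. F11r, also by its strongest probe set, ran from -1.37 to 0.07. Cldn3 was higher in every pool by its strongest probe set, with differences from 0.80 to 1.96. Cldn4 stood out in the monosomal pool of untreated NMuMG cells, where it was 3.24 above total RNA. The 10th and 90th percentiles of all probe sets there were -1.05 and 0.79. In the polysomal pool of the same cells it was 1.13 above, and in the pools of untreated E1KD cells it differed by 0.20 (monosomal) and -0.81 (polysomal). In the monosomal pools of treated NMuMG and treated E1KD cells Cldn4 was 1.79 and 2.27 above total RNA. The 90th percentiles of all probe sets in these pools were 1.42 and 1.47. These differences compare preparations that were normalised together but isolated differently, and they were not tested.

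Immunoprecipitation asked which mRNAs were recovered with hnRNP E1. The titles and source names of the α-hnRNP E1 libraries put arrays 13A and 14B in the control and 14A and 13B in the TGFβ group, but the descriptions name TGFβ for 14A and 14B, so both assignments are given. By the titles, 0 of the 6 genes were called between α-hnRNP E1 and IgG, where 25.6% of all probe sets were. Tjp1 was 11.98 and 12.08 in the control and 11.98 and 11.81 in the TGFβ group of α-hnRNP E1, and 11.79, 11.97, 11.66 and 11.72 with IgG (0.18, SE 0.08, limma adjusted p = 0.168). Ocln lay between 6.63 and 7.24 with α-hnRNP E1 and between 6.74 and 7.23 with IgG, and F11r between 9.28 and 9.60 and between 9.39 and 9.56. The values of these genes overlapped between the antibodies.

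Cldn4 and Cgn followed the array number rather than the title. Cldn4 was 6.59 and 6.36 on arrays 13A and 13B and 5.57 and 5.47 on 14A and 14B, and with IgG it was 5.71 and 5.65 without and 6.34 and 6.45 with TGFβ. Cgn was 8.22 and 8.06 on 13A and 13B, 8.65 and 8.67 on 14A and 14B, and 8.35 and 8.29 without and 7.76 and 7.76 with TGFβ in IgG. The pairs of one number lay together for both genes. By the titles no probe set at all was called for TGFβ within α-hnRNP E1 (limma, 0% of all, 403 at an unadjusted p under 0.05), and 0.00393% of all probe sets, with 0 of the 6 genes, within IgG.

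**Figure D4:**
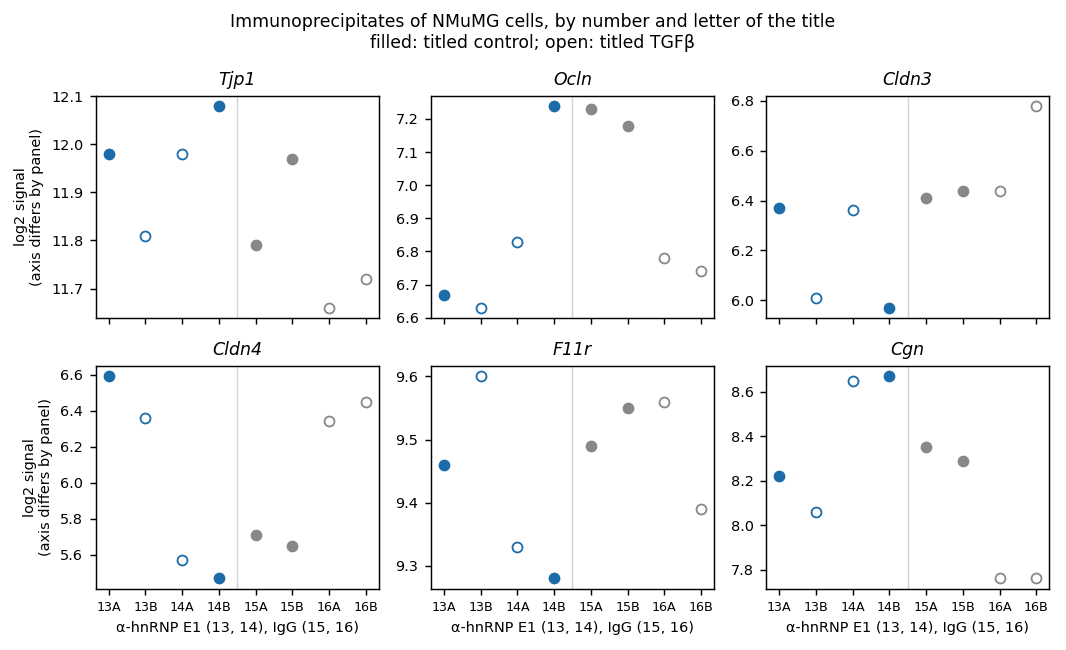
Log2 signals of the 6 tested genes (y axis, scaled per panel) in single immunoprecipitates of NMuMG cells (x axis, number and letter of the library title). Blue points are α-hnRNP E1 and grey points IgG, filled for libraries titled control and open for TGFβ. Cldn4 lies at 6.59 and 6.36 on arrays 13A and 13B and at 5.57 and 5.47 on 14A and 14B.

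With the α-hnRNP E1 libraries assigned by array number, 14A and 14B as TGFβ, Cgn was 0.36 higher (SE 0.07, limma adjusted p = 0.00216) and Cldn3 0.34 lower (SE 0.12, limma adjusted p = 0.047) with α-hnRNP E1 than with IgG, where 42.2% of all probe sets were called. The other 3 Cldn3 probe sets did not pass, and the second Ocln probe set was called at -0.23 (limma adjusted p = 0.0449). The TGFβ difference within α-hnRNP E1 was then -0.95 for Cldn4 (SE 0.11, limma adjusted p = 0.00045) and 0.52 for Cgn (SE 0.09, limma adjusted p = 0.00578), and 0.40 for the second Ocln probe set (SE 0.11, limma adjusted p = 0.0496), with 14.7% of all probe sets called. Within IgG in the same fit it was 0.71 for Cldn4 (SE 0.11, limma adjusted p = 0.00486) and -0.56 for Cgn (SE 0.09, limma adjusted p = 0.00832), with 5.83% called. Under this assignment both genes moved in opposite directions in the 2 antibodies, a difference that was not itself tested. These directions hold only for the assignment by number. With the numbers swapped, the signs within α-hnRNP E1 would be reversed and would be those of IgG for both genes. No label gives that swap, and which arrays were treated was not tested.

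Other tight junction and polarity genes were listed for background. Of 54 such genes, 49 had a probe set with 1 symbol and 36 passed the filter. TGFβ in total RNA of NMuMG cells raised 2 of the 36 and lowered 2, where 5.43% of all probe sets were called, and in E1KD cells it raised 6 and lowered 8, where 21.2% were. E1KD cells had 8 higher and 11 lower untreated (29.3% of all probe sets called), and 6 higher and 9 lower with TGFβ (27.2% called). Cldn2, a claudin that forms a cation pore, was lower in untreated E1KD than in NMuMG cells by 1.45 (SE 0.15, limma adjusted p = 2.06e-06). TGFβ raised it by 2.42 in E1KD cells (SE 0.15, limma adjusted p = 2.25e-08) and lowered it by 0.59 in NMuMG cells (SE 0.15, limma adjusted p = 0.0308). Cldn4 had the opposite sign in each of these comparisons, without a call in the untreated one.

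Among the other genes of the list, those with the largest called differences in total RNA were of several kinds. Lsr, a protein of tricellular contacts, was lower with TGFβ in NMuMG cells (-0.38) and lower in untreated E1KD cells (-1.38). The scaffold Magi1 was lower in untreated E1KD cells (-1.50) and higher with TGFβ in E1KD cells (0.75), while of the angiomotins Amotl1 was higher with TGFβ in NMuMG cells (0.56) and in untreated E1KD cells (1.96), and Amot was lower with TGFβ in E1KD cells (-1.17) and in treated E1KD against treated NMuMG cells (-1.96). Of the Par6 polarity adaptors, Pard6g was higher in E1KD cells untreated (1.91) and treated (2.61) and with TGFβ in E1KD cells (0.67). Pard6a was higher in untreated E1KD cells (1.49) and lower with TGFβ in them (-1.41), and Pard6b was lower in treated E1KD cells (-1.67). The polarity kinase Prkcz was lower (-1.30) and the scaffold Mpdz higher (0.80) in treated E1KD cells, the adhesion protein Cxadr was lower with TGFβ in E1KD cells (-1.06), and Arhgef18 was higher with TGFβ in NMuMG cells (0.64). Each of these differences had a limma adjusted p under 0.05.

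Over the 12 conditions of total and pooled RNA, Tjp1, Cgn, Ocln and F11r each resembled another tested member, and Cldn3 and Cldn4 stood apart. Across condition means, Tjp1 and Cgn were the most alike (Pearson r = 0.886), then Ocln and Cgn (0.72) and F11r and Tjp1 (0.712). For the neighbours Cldn3 and Cldn4 it was 0.382, the highest that either had with another tested member. The genes most like each member over all genes tested were Gcc2 for Tjp1 (0.993), Ing5 for Ocln (0.971), Igsf1 for Cldn3 (0.993), Tfr2 for Cldn4 (0.984), Cbx6 for F11r (0.974) and Ep400 for Cgn (0.964). These are descriptions over 12 means that share the contrast between pools and total RNA, and the most alike of 12600 genes is high by selection.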

How the data were processed

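The authors processed the arrays with RMA in Affymetrix Expression Console, as named in the submitters' processing notes, and deposited log2 signals of 45101 probe sets on 32 arrays. RMA subtracts background, gives all arrays 1 distribution and summarises probes, so a rise of all RNAs of a pool is not visible. No further normalization was applied. Probe sets were named through the platform annotation (34945 with 1 symbol, 932 with several, 9160 with none listed), and 64 control probe sets were left out. The filter kept 25432 probe sets above the table median of 5.52 on at least 8 arrays, for 12600 genes. Differences were tested on both sides by the moderated statistics of limma (version 3.58.1, R 4.3.3), the 24 arrays of total and pooled RNA in 1 model (12 residual degrees of freedom) and the 8 immunoprecipitates in another (4). The Benjamini-Hochberg adjustment ran over all probe sets kept, and calls were made at 0.05. The number of arrays limits the precision.

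Samples were grouped by title and source name. The genes and lists were chosen with earlier results of these data known, and the TGFβ contrasts within pools were added after the values were seen. Named genes are all members, the gene most like each, Pcbp1, and up to 3 listed genes per direction and total RNA contrast with the largest called difference. The scripts were tested on simulated data. Promoters came from RefSeq tables of GRCm38.p6. Alternatives were the filter, normalization and centring, the arrays fitted, the choice of probe set, an intensity trend, the replicate block, leaving out each array, and the array-number assignment. Protein sequences were not used here.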

Additional observations from a re-analysis of the deposited data

Results flagged for a closer look

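The response to TGFβ differed between NMuMG and E1KD cells for several of the genes by a test of the difference itself. Cldn4 differed in total RNA by -3.28 (limma adjusted p = 1.98e-05). The polysome shift differed for Ocln by -2.96, for F11r by -1.11, for Tjp1 by -1.00, for Cldn4 by -1.47 and for Cldn3 by 1.43, with limma adjusted p of 4.57e-05, 0.000642, 0.00945, 0.0364 and 0.0412. The E1KD pools of Ocln lay around or below the table median of 5.52, so the size of its difference is uncertain. The values for F11r come from 1 of its 2 probe sets, and those for Cldn3 were called in 2 of its 4.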

How the results depend on the processing

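Over 51 called differences of the tight junction genes, 690 of 809 recomputed values kept their direction and call, 111 kept the direction and lost the call, and 8 changed sign. All 8 came from using the weaker probe set. For F11r this gave -0.24 (TGFβ in NMuMG total RNA), -0.05 (E1KD against NMuMG, untreated), 0.38 (pools of untreated NMuMG), -0.65 (NMuMG shift), 0.72 (difference of shifts), 0.32 (monosomal TGFβ change) and -0.33 (polysomal), and for Ocln -0.07 (pools of untreated E1KD). The weaker F11r probe set lay between 6.09 and 6.93 on the 32 arrays, and the stronger between 9.28 and 11.94. The cause of the sign changes was not tested.

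The number of tight junction genes called stayed within 1.5 times in 265 of 313 recomputed counts. For TGFβ in NMuMG total RNA it went from 2 to 1 with no filter, array-median centring, all 32 arrays, the mean or the weaker probe set, and to 1 without each replicate. In E1KD cells it went from 2 to 1 with no filter, quantile normalization, centring on the median or on Actb and Gapdh, all 32 arrays or the replicate block, and to 0 without each replicate. The weaker probe set gave 2 in place of 4 for untreated E1KD against NMuMG and for the untreated E1KD pools (2 to 4 without a replicate), 1 in place of 2 for the NMuMG polysomal TGFβ change, and 0 in place of 1 for the E1KD one, as did the mean of probe sets and fitting only the arrays compared (0 to 1 without a replicate). The total RNA interaction went from 1 to 2 with Actb and Gapdh and to 3 with only the arrays compared. With only the arrays compared, 4 became 2 (treated E1KD pools), 3 became 1 (E1KD shift, 0 to 3 without a replicate) and 5 became 3 (difference of shifts, also 3 with no filter, 3 to 5 without a replicate). For the immunoprecipitates 0 became 2 in each of the 3 comparisons by array number, and 0 to 1 without a replicate for the antibodies.

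The replicate numbers were not taken to pair the samples. The correlation of replicate differences between conditions ran from -0.383 to 0.323, with a median of 0.065 over 66 pairs, 21 of them over 0.1. Between the α-hnRNP E1 control and TGFβ groups as titled, outside these pairs, it was -0.592. With the replicate block, the limma adjusted p of Cldn4 was 0.053 for TGFβ in E1KD total RNA and 0.0525 for the E1KD shift, and it changed no other call. With 2 arrays per group and signals near the table median, small differences of Cldn3, Cldn4 and the E1KD values of Ocln were not detectable.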
